A study of Mus musculus with 12 samples.

Results

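The Nogo pathway genes described here are 8 genes of myelin inhibition: the ligand genes Rtn4 and Omg, the receptor genes Rtn4r, Rtn4rl1 and Rtn4rl2, and the coreceptor genes Lingo1, Ngfr and Tnfrsf19. The rule that chose them names symbols and no level. Each gene was the locus carrying its symbol, or the locus with the highest mean where several did. All 8 were found among 33864 loci, and 7 of them had 1 locus. RNA-seq had been made from subcortical white matter of mutant mice and their littermate controls. In the mutants, a transgene that lowers or raises signalling of ErbB receptors, the family of EGFR and ErbB2, was directed to oligodendrocyte-lineage cells. There were 4 groups of 3 libraries. The dnEGFR mutants were Sox10-tTA;TRE-dnEGFR mice, which carry a dominant-negative EGFR, and their controls were TRE-dnEGFR littermates. This line was taken at postnatal day 35 and had doxycycline from day 21 to day 35. The ErbB2V664E mutants were Sox10-tTA;TRE-ErbB2V664E mice, which carry an activated ErbB2, and their controls were TRE-ErbB2V664E littermates, taken at day 30 with doxycycline from day 21 to day 30. In both lines the tTA transactivator is driven by Sox10, a gene of the oligodendrocyte lineage. All 12 animals had doxycycline, every control carried the TRE responder alone, and no group carried tTA alone. Line, age and length of doxycycline treatment change together, so that they cannot be told apart. The labels do not say in which direction doxycycline switched the transgenes.

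Central myelin holds proteins that stop growing axons and limit the branching of intact ones. Nogo-A, the long product of Rtn4, oligodendrocyte myelin glycoprotein (Omg) and myelin-associated glycoprotein (Mag) are made by oligodendrocytes and bind the Nogo receptor (Rtn4r), a leucine-rich repeat protein held on the axon surface by a lipid anchor. The receptor has no intracellular part, and it signals through Lingo1 together with Ngfr (the p75 neurotrophin receptor) or Tnfrsf19 (TROY), which lead to the GTPase RhoA and its kinase Rock. Neurons express Rtn4, Omg and the receptors as well, so white matter that holds neuronal RNA reads both sides of the pathway.

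Levels are FPKM: fragment counts divided by transcript length and by library size, so that genes can be compared per length. Depth was estimated at 16596887 to 24739628 fragments per library, which puts 1 FPKM in a transcript of 2 kb at 33.2 to 49.5 fragments. All 10 mature oligodendrocyte markers were detected, and their summed level was 1066 to 1304 FPKM in the dnEGFR line, 1191 to 1928 in ErbB2V664E controls and 716 to 1169 in ErbB2V664E mutants. Neuronal markers summed to 478 to 834 FPKM over all libraries, so the tissue also held neuronal RNA. Schwann cell markers were at 0.8 to 1.33 FPKM in sum. Choroid plexus markers varied widely within every group. Their sum was 19.4 to 714 FPKM in dnEGFR controls and 132 to 700 in dnEGFR mutants. It was 246 to 569 FPKM in ErbB2V664E controls and 11.9 to 638 in ErbB2V664E mutants. In such bulk tissue, fewer cells of a type and less RNA per cell cannot be told apart.

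Over the 12 libraries Rtn4 was the highest of the 8 genes, with a mean of 72.4 FPKM, followed by Omg at 18.3, Rtn4r at 17.4 and Tnfrsf19 at 11.96. Lingo1 had a mean of 4.25 FPKM, Rtn4rl2 of 3.99, Rtn4rl1 of 3.58 and Ngfr of 0.755. Libraries of Rtn4r and Tnfrsf19 overlapped one another, as did those of Lingo1, Rtn4rl2 and Rtn4rl1. Their order within these groups thus did not exceed their spread. Each library of Omg lay either above or below all those of Rtn4r and Tnfrsf19. The median of Omg was 1.44 FPKM, beside 15.6 for Rtn4r and 12.6 for Tnfrsf19, so its place by mean rests on its high libraries. The order also depended on the line. In the dnEGFR line Rtn4rl1 (mean 6.32 FPKM) lay between Rtn4r (9.57) and Rtn4rl2 (2.17). In the ErbB2V664E line it had the lowest mean of the 8 (0.844), under Ngfr (0.866). Rtn4r had the highest mean of the receptors in both lines, at 25.3 FPKM in the ErbB2V664E line.

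**Figure D1:**
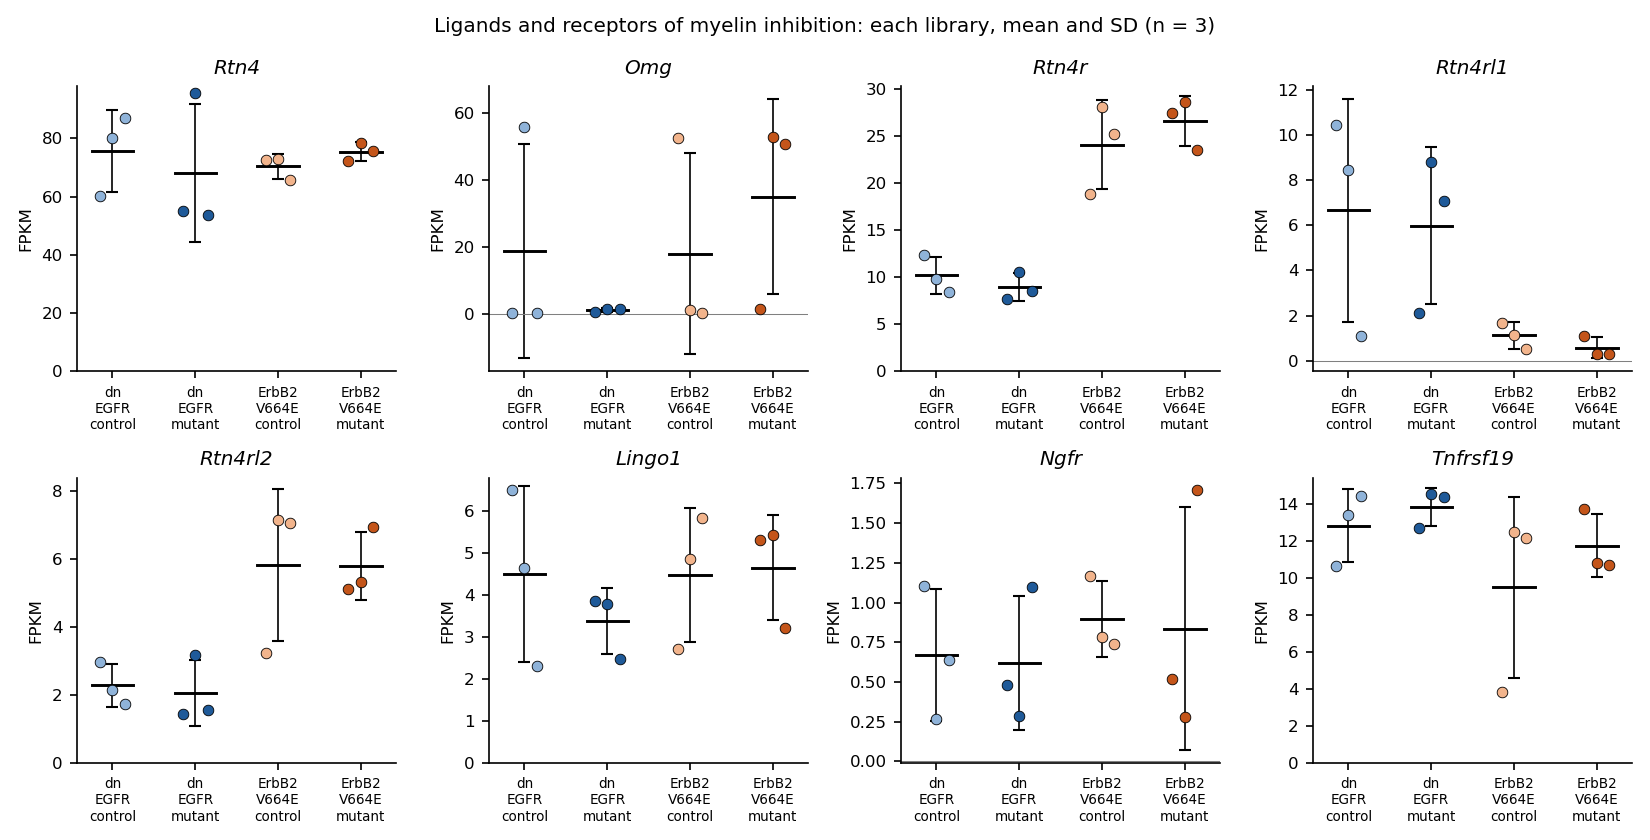
FPKM of the 8 genes in each library (points; replicates 1 to 3 from left to right), with the mean (thick line) and SD (bars, n = 3) of each group; each panel has its own linear axis. Rtn4r and Rtn4rl2 are higher in all 6 libraries of the ErbB2V664E line than in any of the dnEGFR line, and Omg falls into high and low libraries within groups.

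None of the 8 genes passed the test in any comparison. Each was fitted with limma on log2(FPKM + 1) together with all 13803 loci tested, and called at a Benjamini-Hochberg adjusted p under 0.05. For dnEGFR mutants against controls 0 of 8 were called, beside 0.0942% of all loci tested. For ErbB2V664E 0 of 8 were called, beside 0.275%, and for the difference between both effects 0 of 8, beside 0.116%. At an unadjusted p under 0.05 the count was also 0 of 8 in each comparison, beside 786, 1675 and 1244 of all loci. In no gene did mutant and control libraries separate without overlap, which 10.1% of loci did in the dnEGFR line and 18.2% in the ErbB2V664E line. The median change of the 8 genes on the log2(FPKM + 1) scale was -0.148 in dnEGFR mutants and 0.082 in ErbB2V664E mutants, where the medians of all loci were 0.005 and 0.004. A p that misses the threshold does not show that levels did not differ, so the interval of each difference is given with the genes below. With the litter as a block, fewer loci were called in all: 3 for dnEGFR, 7 for ErbB2V664E and 4 for the difference, in place of 13, 38 and 16.

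**Figure D2:**
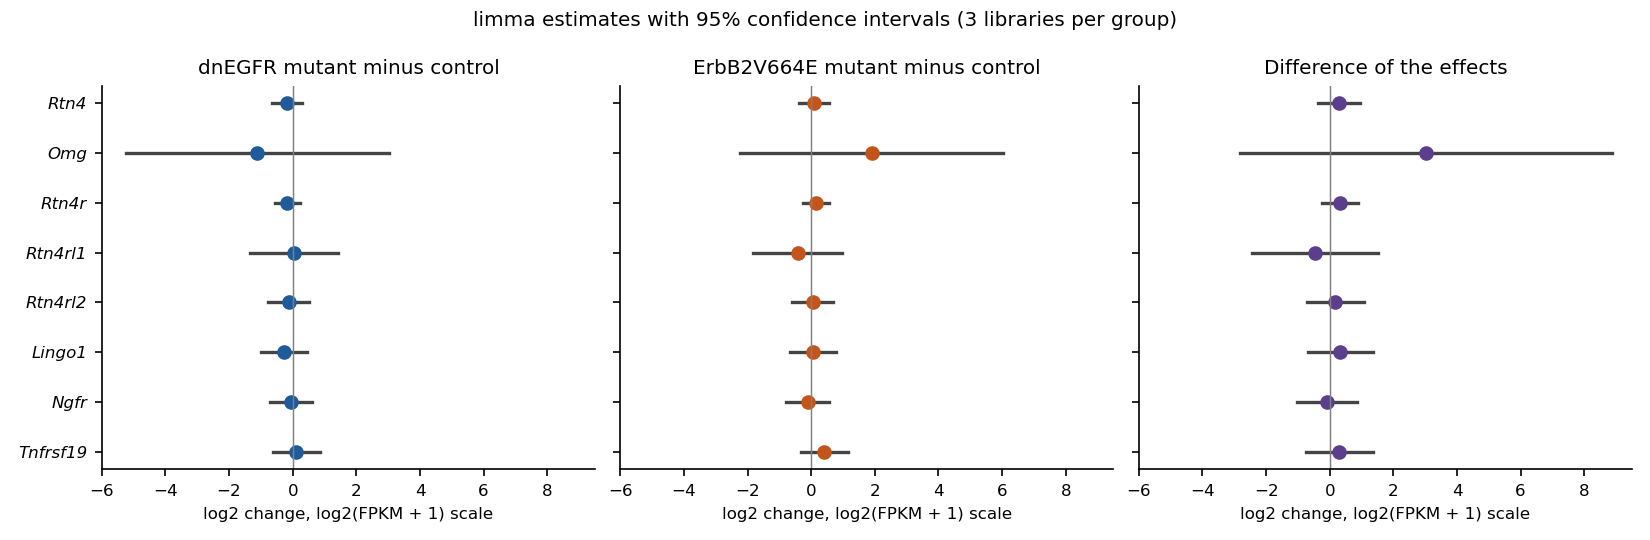
Estimated change of each gene on the log2(FPKM + 1) scale (points) with the 95% confidence interval from limma (lines), for mutants minus controls in each line and for the ErbB2V664E effect minus the dnEGFR effect. Every interval includes 0; that of Rtn4r is the narrowest in each panel and that of Omg the widest.

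Rtn4, whose protein Nogo-A gives the pathway its name, stayed within a 1.77-fold range over all libraries. Its level was 60.1, 80.0 and 87.1 FPKM in dnEGFR controls 1 to 3 and 55.1, 95.5 and 53.8 in their mutant littermates. The highest and the lowest library of the series were both dnEGFR mutants, and the groups overlapped. The change was -0.19 on the log2 scale, with a 95% interval of -0.65 to 0.28 (limma, adjusted p = 0.997).

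In the ErbB2V664E line Rtn4 was at 72.7, 73.0 and 65.6 FPKM in controls and at 72.1, 78.6 and 75.8 in mutants. These 6 libraries lay close together, with a coefficient of variation of 6.0% against 24.9% over the 6 libraries of the dnEGFR line. The groups overlapped, and the change was 0.10 (interval -0.37 to 0.57, adjusted p = 0.9). The summed mature oligodendrocyte markers of the same mutants lay below all their controls. The neuronal sum was 630 to 690 FPKM in controls and 668 to 682 in mutants, but its markers did not move together. Of 10 neuronal markers 7 had positive values and 3 negative ones. Snap25 had a mean of 189 FPKM in controls and 244 in mutants, and Tubb3 of 101 and 48.3. The part of either sum in the level of Rtn4 was not tested. The difference between both effects on Rtn4 was 0.29 (interval -0.38 to 0.95, adjusted p = 0.796). Exons of Rtn4 overlap those of Eml6 on the opposite strand, and the library protocol names no step that keeps strand. Eml6 was at 1.94 to 3.09 FPKM, a small level beside that of Rtn4.

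Omg, which encodes a lipid-anchored glycoprotein of oligodendrocytes and neurons, varied from library to library within the groups. Its level was 0.233, 55.9 and 0.330 FPKM in dnEGFR controls and 0.438, 1.54 and 1.53 in dnEGFR mutants. It was 52.7, 1.02 and 0.163 FPKM in ErbB2V664E controls and 1.35, 52.9 and 51.0 in ErbB2V664E mutants. Thus 4 libraries stood at 51.0 to 55.9 FPKM and the other 8 at 0.163 to 1.54, with none between, and the highest was 342 times the lowest. High libraries occurred in both control groups and in the ErbB2V664E mutants, and no littermate pair had both its members high.

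By the estimated depth, the level of Omg corresponds to about 2470 to 2557 fragments in the 4 high libraries and 7.4 to 72.5 in the 8 low ones. These numbers were worked back from FPKM and are not counts, and the cause of the split was not tested. The group means followed from which libraries were high, and the intervals were wide. The change was -1.11 in dnEGFR mutants (interval -5.25 to 3.02, limma adjusted p = 1) and 1.90 in ErbB2V664E mutants (interval -2.23 to 6.04, adjusted p = 0.739). Without dnEGFR control 2, the only high library of its line, the dnEGFR value turned to 0.71. The difference between both effects was 3.01 (interval -2.83 to 8.86, adjusted p = 0.762).

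Omg has 1 annotated transcript of 2228 bases, which lies on the opposite strand inside an intron of Nf1, the gene of neurofibromin, without overlap of exons. Nf1 itself was even, at 4.57 to 7.76 FPKM over the 12 libraries, a 1.7-fold range. The locus that joins Evi2a and Evi2b, which lie in the same intron, was at 2.76 to 7.67 FPKM, a 2.78-fold range. Its highest library was ErbB2V664E control 1, which was also 1 of the 4 libraries high in Omg and the other 3 had 2.77 to 3.79 FPKM there. Neither neighbour showed the split of Omg. Such a spread was uncommon but not confined to Omg. Of 3774 tested loci that reached 10 FPKM in at least 1 library, 190 (5.0%) were listed at 0 in a library or had a highest value at least 100 times the lowest.

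**Figure D3:**
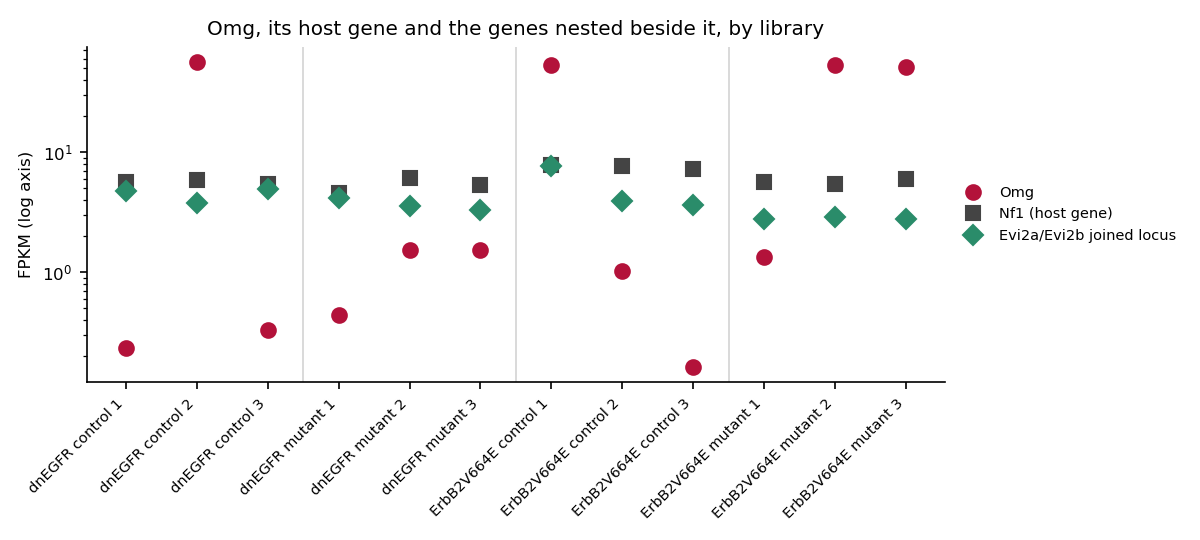
FPKM of Omg (circles), of its host gene Nf1 (squares) and of the joined Evi2a and Evi2b locus (diamonds) in each of the 12 libraries, on a log axis; vertical lines part the 4 groups. Omg is at 51.0 to 55.9 FPKM in 4 libraries and at 0.163 to 1.54 in the others, while Nf1 stays between 4.57 and 7.76.

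Rtn4r, the Nogo receptor, was the receptor gene with the narrowest intervals. In dnEGFR controls it was at 12.3, 9.82 and 8.45 FPKM and in dnEGFR mutants at 7.70, 10.6 and 8.53, and the groups overlapped (change -0.17, interval -0.57 to 0.23, limma adjusted p = 0.992). In ErbB2V664E controls it was at 18.9, 28.1 and 25.2 FPKM and in mutants at 27.5, 28.6 and 23.5, again with overlap (0.15, interval -0.25 to 0.55, adjusted p = 0.792). The difference between the effects was 0.32 (interval -0.24 to 0.88, adjusted p = 0.739). Within each line mutants and controls overlapped, whereas the lines stood apart.

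Rtn4rl2, a homologue of the Nogo receptor that binds Mag, showed the same split by line at a lower level. It was at 2.96, 2.15 and 1.72 FPKM in dnEGFR controls and at 1.45, 3.17 and 1.55 in dnEGFR mutants (change -0.13, interval -0.77 to 0.51, adjusted p = 1). In the ErbB2V664E line it was at 3.23, 7.16 and 7.06 in controls and at 5.12, 5.33 and 6.94 in mutants (0.05, interval -0.59 to 0.69, adjusted p = 0.975). Mutants and controls overlapped in both lines. The lines met closely, since the highest dnEGFR library was at 3.17 FPKM and the lowest of the ErbB2V664E line at 3.23. The difference between the effects was 0.18 (interval -0.73 to 1.08, adjusted p = 0.92).

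Thus 2 of 8 genes, Rtn4r and Rtn4rl2, were higher in all 6 libraries of the ErbB2V664E line, beside 10.5% of all loci tested, and 0 of 8 were lower in all 6, beside 9.44%. In both genes the mean of the line was at least 2 times that of the other, which 2.88% of loci combined with a lack of overlap. Among controls the mean of Rtn4r was 2.36 times that of the dnEGFR line, and that of Rtn4rl2 2.55 times. Among mutants the ratios were 2.97 and 2.82. These ratios were not tested, and line, age and treatment length cannot be told apart in them.

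The difference between the lines also varied with the GC content of the transcripts. Over 12227 tested loci with a known GC content, the median difference between the lines' controls, on the log2 scale, split into 10 classes of equal size, rose from -0.215 in the class of lowest GC (29.3 to 42.9%) to 0.373 in that of highest GC (58.2 to 74.7%). Rtn4r (62.7% GC) and Rtn4rl2 (67.2%) belong to the highest class, in which their differences of 1.16 and 1.01 were exceeded by 5.0% and 8.5% of loci. Lingo1 (59.2%) and Ngfr (58.6%) lie in the same class and had differences of 0.03 and 0.21, under its median. The lines also differed in a single abundant locus, Gm28661, which took 4.29 to 4.98% of all FPKM in the ErbB2V664E line and was at most 0.000146 FPKM in the dnEGFR line. The part of either in the levels of Rtn4r and Rtn4rl2 was not tested.

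**Figure D4:**
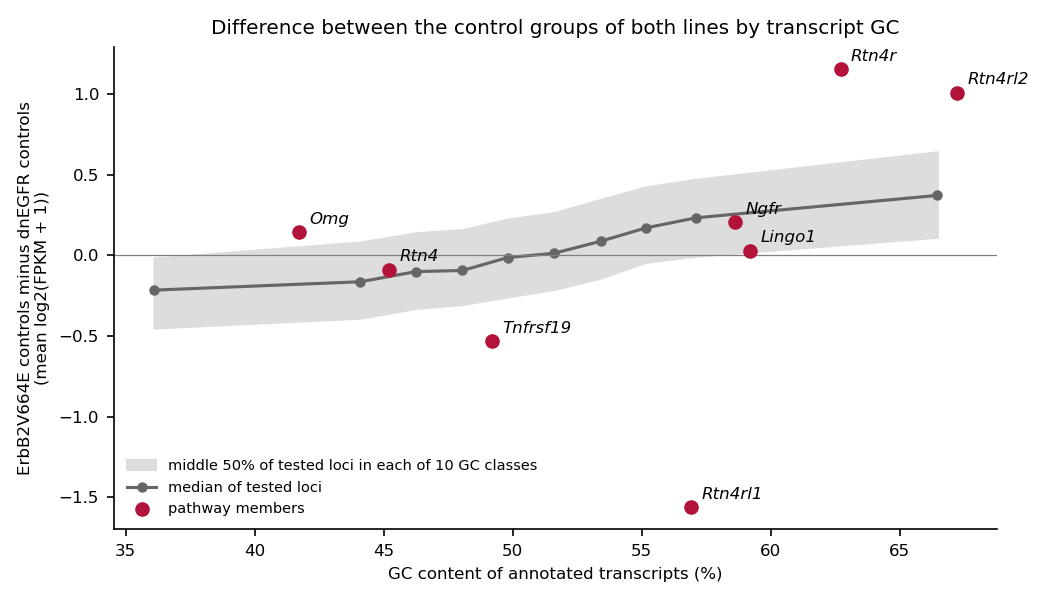
Difference in mean log2(FPKM + 1) between ErbB2V664E controls and dnEGFR controls (3 libraries each) against the GC content of the annotated transcripts, for the 8 genes (red), with the median (line) and middle 50% (band) of tested loci in each of 10 GC classes, drawn at the middle of the class's GC range. Rtn4r and Rtn4rl2 lie above the band of their class, Rtn4rl1 far below its own, and Rtn4 near the median.

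The promoters of the pair that stood apart by line are shown beside a promoter of Rtn4, which did not differ between the lines in this way. They are 300 bases each, from 250 before to 50 after a transcript start in RefSeq (GRCm38.p6), 5′ to 3′ on the gene's strand. Capitals mark GGGCGG and its reverse complement CCGCCC, the core of the GC box. Rtn4r lies at chr16:18127392-18127691 (+), Rtn4rl2 at chr2:84886643-84886942 (-) and the first of 3 listed starts of Rtn4 at chr11:29692648-29692947 (+).
Rtn4r: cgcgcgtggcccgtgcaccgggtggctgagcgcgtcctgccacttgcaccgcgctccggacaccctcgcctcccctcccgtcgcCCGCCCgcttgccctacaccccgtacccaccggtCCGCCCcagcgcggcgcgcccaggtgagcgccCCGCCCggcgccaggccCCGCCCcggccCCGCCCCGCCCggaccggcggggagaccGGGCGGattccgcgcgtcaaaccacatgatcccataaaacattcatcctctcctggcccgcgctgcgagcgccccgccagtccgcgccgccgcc
Rtn4rl2: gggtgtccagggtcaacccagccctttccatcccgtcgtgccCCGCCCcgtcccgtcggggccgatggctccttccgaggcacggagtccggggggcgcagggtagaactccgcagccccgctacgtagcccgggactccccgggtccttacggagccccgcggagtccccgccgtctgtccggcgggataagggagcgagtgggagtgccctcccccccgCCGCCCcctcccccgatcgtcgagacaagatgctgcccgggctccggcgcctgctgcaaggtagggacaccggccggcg
Rtn4: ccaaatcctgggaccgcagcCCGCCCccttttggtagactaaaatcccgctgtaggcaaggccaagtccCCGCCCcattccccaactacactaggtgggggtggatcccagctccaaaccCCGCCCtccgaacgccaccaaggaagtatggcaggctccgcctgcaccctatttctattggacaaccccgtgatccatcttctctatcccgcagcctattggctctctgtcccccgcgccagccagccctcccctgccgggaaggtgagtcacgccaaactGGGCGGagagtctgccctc

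The Rtn4r window is 78.0% G and C, with 47 CpG dinucleotides and 7 matches of the motif. That of Rtn4rl2 is 74.0% G and C, with 35 CpG and 2 matches, and that of Rtn4 62.3%, with 15 CpG and 4 matches. Of 32851 mouse promoters of the same length, 35.7% hold the motif on either strand and 19.5% hold 2 or more; the median promoter has 52.7% G and C and 7 CpG. Among the 10 promoters listed for these genes, that of Rtn4r had the highest value of each figure. That of Rtn4rl2 did not stand out in this way. The second listed start of Rtn4 has 75.3% G and C, 35 CpG and 1 match, and the first of Lingo1 71.3%, 35 CpG and 1 match. Neither gene's level separated by line. The part of the promoters in the levels was not tested. A match describes the letters and not a bound site.

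Rtn4rl1, the remaining homologue of the receptor, which with Rtn4r binds chondroitin sulphate chains, went the other way between the lines. It was at 10.4, 8.44 and 1.08 FPKM in dnEGFR controls and at 2.10, 8.78 and 7.07 in dnEGFR mutants. It was at 1.68, 1.16 and 0.512 FPKM in ErbB2V664E controls and at 1.10, 0.292 and 0.319 in ErbB2V664E mutants. In the dnEGFR line 4 libraries were high and 2 low, a control and a mutant, and all 6 ErbB2V664E libraries were low. The lines overlapped only through dnEGFR control 3, at 1.08.

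The change of Rtn4rl1 was 0.04 in dnEGFR mutants (interval -1.36 to 1.44, limma adjusted p = 1) and -0.43 in ErbB2V664E mutants (interval -1.83 to 0.97, adjusted p = 0.84). The difference between the effects was -0.47 (interval -2.45 to 1.51, adjusted p = 0.902). The mean of ErbB2V664E controls was 0.168 times that of dnEGFR controls, and that of mutants 0.0955 times. Of the loci in its GC class, 99.8% had a higher difference between the control groups. Rtn4rl1 is also the gene with a second locus under its symbol. That locus was at 0.192 to 0.519 FPKM in the dnEGFR line and at 0.753 to 1.20 in the ErbB2V664E line, without overlap and in the opposite direction. How fragments were shared between these loci is not given, so the level of the gene as a whole is less certain than that of the other receptors.

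Lingo1, the leucine-rich repeat coreceptor that limits oligodendrocyte differentiation as well as axon growth, was at 6.51, 4.65 and 2.32 FPKM in dnEGFR controls and at 3.86, 3.79 and 2.47 in dnEGFR mutants. In ErbB2V664E controls it was at 2.72, 4.87 and 5.83 FPKM and in mutants at 5.30, 5.44 and 3.21. Each group held at least 1 library near 2 or 3 FPKM, and all groups overlapped. The change was -0.27 in dnEGFR mutants (interval -0.99 to 0.45, limma adjusted p = 0.998) and 0.07 in ErbB2V664E mutants (interval -0.66 to 0.79, adjusted p = 0.97). The difference was 0.33 (interval -0.69 to 1.35, adjusted p = 0.856).

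Ngfr, the p75 receptor that also binds neurotrophins, had the lowest mean of the 8 genes over the 12 libraries. Its level was 1.10, 0.268 and 0.638 FPKM in dnEGFR controls and 0.480, 0.283 and 1.10 in dnEGFR mutants. In the ErbB2V664E line it was 1.17, 0.781 and 0.737 in controls and 0.520, 0.282 and 1.71 in mutants. It passed the filter on low values through 4 libraries above 1 FPKM, 1 in each group, and the groups overlapped. The change was -0.05 in dnEGFR mutants (interval -0.71 to 0.62, limma adjusted p = 1) and -0.12 in ErbB2V664E mutants (interval -0.78 to 0.55, adjusted p = 0.924). The difference was -0.07 (interval -1.01 to 0.87, adjusted p = 0.975).

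Tnfrsf19 encodes TROY, a receptor of the tumour necrosis factor family that can take the place of p75 in the complex. It was at 10.6, 13.4 and 14.4 FPKM in dnEGFR controls and at 12.7, 14.5 and 14.3 in dnEGFR mutants. In the ErbB2V664E line it was at 3.82, 12.4 and 12.2 in controls and at 13.7, 10.8 and 10.7 in mutants. ErbB2V664E control 1 stood below the other 11 libraries, which lay between 10.6 and 14.5 FPKM. Tnfrsf19 was higher than Ngfr in every library, so of the alternative coreceptors it was the more abundant in this tissue by FPKM.

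The change of Tnfrsf19 was 0.11 in dnEGFR mutants (interval -0.63 to 0.85, limma adjusted p = 1) and 0.42 in ErbB2V664E mutants (interval -0.33 to 1.16, adjusted p = 0.669). Without ErbB2V664E control 1 the latter value was -0.07. The difference between the effects was 0.30 (interval -0.75 to 1.35, adjusted p = 0.873).

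Other genes of the pathway were read in 5 lists of 57 genes, 48 of which passed the filter on low values. In dnEGFR mutants 0 of 48 were called, and the median change was 0.035. In ErbB2V664E mutants 2 were lower, beside 0.138% of all loci, and 0 higher, with a median of -0.099, beside a median of 0.004 over all loci. Mutant and control libraries of the ErbB2V664E line separated without overlap in 16 of the 48, of which 13 were lower, where 8.96% of all loci were lower in this way. For the difference between the effects 0 of 48 were called. The unadjusted limma p was under 0.05 for 6, 12 and 11 of the 48 in the dnEGFR, ErbB2V664E and difference comparisons. These were 12.5%, 25% and 22.9%, beside 5.69%, 12.1% and 9.01% of all loci. The lists were chosen with earlier results of these data known, and Mag is also among the mature oligodendrocyte markers. The shares are therefore a description and no test of the pathway.

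The list of other growth inhibitors held both called genes, among 8 tested of 9. Its median change was 0.031 in dnEGFR mutants and -0.475 in ErbB2V664E mutants, with 6 of 8 negative. Mag, the third myelin ligand of the Nogo receptor, was at 106, 86.4 and 115 FPKM in ErbB2V664E controls and at 59.6, 34.0 and 39.9 in mutants. All 3 mutants lay below all 3 controls, and the change was -1.22 (interval -1.66 to -0.77, limma adjusted p = 0.0449). In the dnEGFR line Mag was at 78.3, 70.1 and 90.2 FPKM in controls and at 77.6, 62.9 and 70.9 in mutants (-0.17, adjusted p = 0.997). The difference between the effects on Mag was -1.05 and did not pass (adjusted p = 0.352).

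Sema4d, an axon-repelling semaphorin of oligodendrocytes, was read from a locus joined with Gm15440. It was at 13.4, 10.8 and 14.6 FPKM in ErbB2V664E controls and at 7.95, 4.91 and 5.72 in mutants. Again all mutants lay below all controls, and the change was -0.97 (interval -1.31 to -0.63, limma adjusted p = 0.0408). In the dnEGFR line it was at 9.28, 8.93 and 9.95 FPKM in controls and at 7.86, 8.86 and 8.58 in mutants (-0.14, adjusted p = 0.994), and the difference between the effects was -0.83 (adjusted p = 0.352).

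Both calls lay near the threshold. With the litter as a block the adjusted p was 0.109 for Mag and 0.11 for Sema4d, and the call was lost for both when ErbB2V664E control 1 or 3 or mutant 2 or 3 was left out, for Mag also without control 2. The adjusted p was likewise above 0.05 with no filter on low values (0.0753 and 0.056), with a filter of 5 FPKM (0.0552 for both) and with the 6 libraries of the line alone (0.237 and 0.259), and for Mag with quantile scaling (0.0541). The summed levels of other cell types also differed between these groups. Astrocyte markers were at 224 to 383 FPKM in controls and 155 to 181 in mutants, without overlap. Slc1a2, the highest of them, varied widely, with a mean of 119 FPKM (SD 96.0) in controls and 49.9 (SD 15.2) in mutants. The 6 tested astrocyte markers all had negative values, while Gja1, which did not pass the filter, had means of 0.077 and 6.23 FPKM. Endothelial markers summed to 45.4 to 48.8 and 51.1 to 53.5, also without overlap, but did not move together. Of the 5 endothelial markers 3 had positive values and 2 negative ones. Cldn5 had a mean of 7.39 FPKM in controls and 14.0 in mutants, and Slc2a1, the highest of them, 25.7 and 22.9. The sum of 7 oligodendrocyte precursor markers was at 38.4 to 44.8 FPKM in controls and 82.0 to 92.7 in mutants, with Olig1 listed at 0 in the controls and at a mean of 54.0 in the mutants, and the other 6 markers with negative values. Red blood cell genes were at 95.5 to 214 and 22.1 to 118 FPKM, which overlapped. The part of these sums, and of the mature oligodendrocyte sum, in the values of Mag and Sema4d was not tested. Of the other inhibitors, Bcan and Ncan, chondroitin sulphate proteoglycans of the perineuronal matrix, had values of 0.11 and 0.08 in ErbB2V664E mutants (adjusted p 0.715 and 0.952) and of 0.12 and 0.71 in dnEGFR mutants (adjusted p 0.987 and 0.865). Tnr, the matrix glycoprotein tenascin-R, had values of 1.15 in dnEGFR mutants and -0.85 in ErbB2V664E mutants (adjusted p 0.74 and 0.426).

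None of the 12 tested genes among other receptors and modulators was called in either line, and the list's medians were 0.043 and 0.069. Cntnap1, the axonal partner of the paranodal junction, had a value of -0.33 in ErbB2V664E mutants (adjusted p = 0.26). Lrp1, an endocytic receptor that binds Mag, stood at 0.00 and 0.01 in the lines, Olfm1, a secreted ligand of the Nogo receptor, at -0.04 and 0.41, and Ptprs, a receptor for chondroitin sulphate, at -0.08 and -0.05 (adjusted p 0.652 or above). In the list of RhoA signalling all 11 genes were tested and 0 called, with medians of -0.035 and -0.102. Cfl1, the actin-severing protein cofilin, had values of 0.41 and -0.29 (adjusted p 0.835 and 0.523), and Dpysl2, the microtubule regulator CRMP2, of -0.04 and -0.25 (adjusted p 1 and 0.417). The kinase gene Rock2 had values of 0.31 and 0.27, and Arhgdia, an inhibitor of small GTPases, of -0.08 and 0.27.

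The other reticulons and Lingo genes held 6 tested genes and 0 called, with medians of -0.1 and -0.039. Rtn1 and Rtn3, which share the reticulon domain of Rtn4, had values of 0.04 and -0.57 in dnEGFR mutants (adjusted p 1 and 0.987) and of -0.11 and 0.38 in ErbB2V664E mutants (adjusted p 0.848 and 0.774). Those of Rtn2 were 0.35 and 0.19 (adjusted p 0.755 and 0.585). Lingo3, a relative of Lingo1, had values of 0.39 and -0.48 (adjusted p 0.894 and 0.329). Among neurotrophins and partners of p75, 11 genes were tested and 0 called, with medians of 0.15 and -0.105. Bex3, which binds the intracellular part of p75, had values of 0.71 and 1.17 (adjusted p 0.964 and 0.328), and Maged1, another such partner, of 0.03 and 0.03. Ntrk2, the receptor of BDNF, stood at -0.01 and 0.13, and Sort1, which with p75 binds proneurotrophins (a locus joined with Gm12525), at 0.02 and -0.11.

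**Figure D5:**
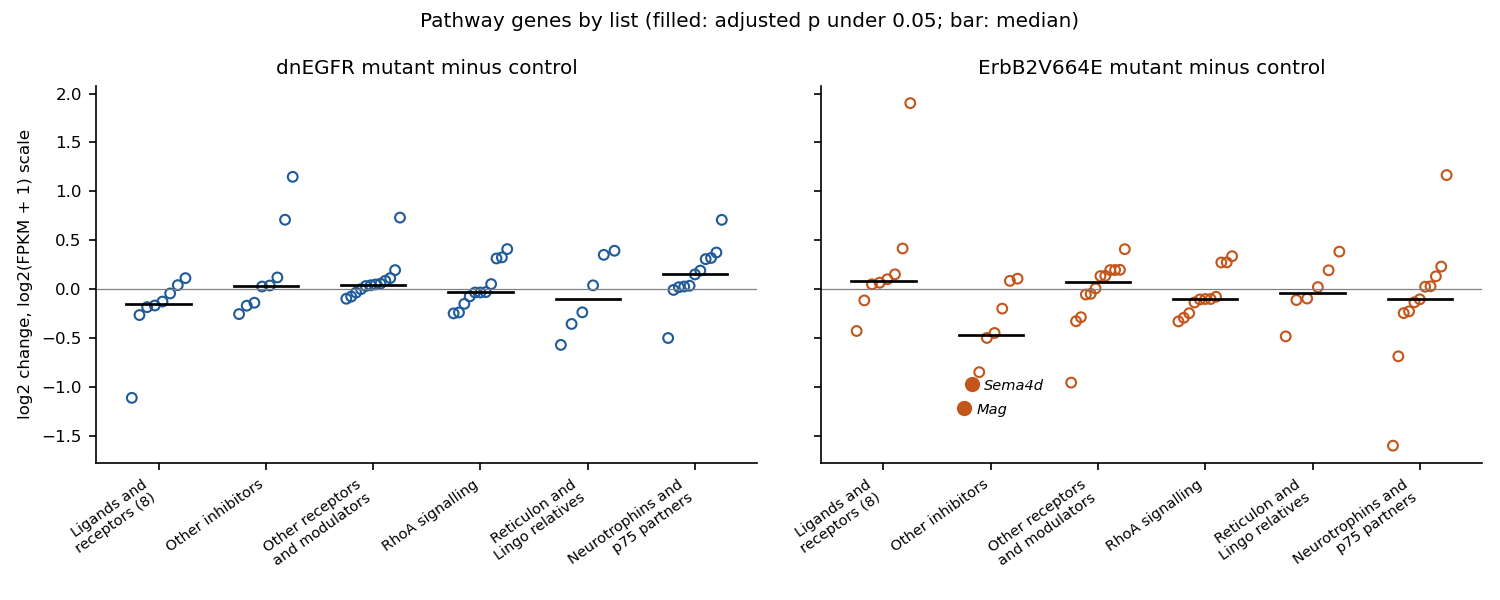
Change on the log2(FPKM + 1) scale of the 8 ligand and receptor genes and of the tested genes of the 5 further lists (points, ordered by value within a list), with list medians (bars), for dnEGFR mutants (left) and ErbB2V664E mutants (right) against controls. The filled points are Mag and Sema4d, the only genes with an adjusted p under 0.05; none of the 8 ligand and receptor genes is filled.

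As a description over the 12 libraries, the loci whose log2(FPKM + 1) was most like that of Rtn4 were AI597479 (Pearson r 0.936, Spearman rank correlation 0.895), Emc7 (0.926, 0.895), Arxes1 (0.903, 0.947), Smcr8 (0.844, 0.888) and Slc6a7 (0.842, 0.811). Those most like Omg were Thoc3 (0.883, 0.692), Gm26917 (0.867, 0.782), Clip4 (0.858, 0.825), Cbx8 (0.854, 0.615) and Tmem55a (0.85, 0.685). For Omg the rank measure was lower than r for each of these loci. These were the highest among the tested loci with a gene symbol, and the points share their libraries.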

How the data were processed

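The authors deposited 1 table of FPKM values per locus for 12 libraries of subcortical white matter, made with StringTie after alignment with HISAT, per the submitters' processing notes. No build or annotation is named in these sources. The labels' protocols name poly(A) selection, random hexamers and paired-end sequencing and no step that keeps strand, so reads of genes overlapping on opposite strands could be assigned to either. The libraries came from separate littermate animals as far as the descriptions say, with each control named as the littermate of 1 mutant.

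Loci at 1 FPKM or more in at least 3 of 12 libraries (13803 of 33864) were tested with limma 3.58.1 in R 4.3.3 on log2(FPKM + 1), with 1 mean per group, a variance trend, 8 residual and 2.03 prior degrees of freedom, two-sided, and Benjamini-Hochberg adjustment over all loci tested at 0.05. A change on this scale understates that of low loci. The fit was tested on simulated data first. Fragments were estimated from the steps of low values at 14221 loci with 1 transcript. These estimates served to describe depth and entered no test. Tables and figures used Python 3.11.15, pandas 2.3.3, numpy 2.4.6, scipy 1.17.1 and matplotlib 3.10.9. Positions relative to other genes were read from GENCODE M21, which holds 99.5% of the 91226 Ensembl transcripts in the table, and promoters from RefSeq, which had 10 promoters for 6 of the 8 genes.

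The littermates named in the descriptions set the pairing used in the block; deviations from the group means correlated at 0.016, 0.009, 0.033, -0.004, 0.01 and -0.025 in the 6 pairs. Alternatives were another pseudocount, filter, scaling, the litter block, the 6 libraries of a line alone, the sum of loci with the same symbol and leaving out each library. The text names the 8 genes in every library and, of the further lists, each called gene and up to 4 of highest mean. It also names the 5 loci with a gene symbol most like Rtn4 or Omg. The genes and lists were chosen with earlier results of these data known.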

Additional observations from a re-analysis of the deposited data

How the results depend on the processing

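Under 397 alternative values for the 8 genes, 369 kept their direction and stayed uncalled, 28 changed direction (26 of them on leaving out a library) and 0 were called, the lowest adjusted p being 0.401. The loci called numbered 13 for dnEGFR, 38 for ErbB2V664E and 16 for the difference. With a filter of 5 FPKM the ErbB2V664E count was 7 and that of the difference 7, with the replicate block the 3 counts were 3, 7 and 4, and with the 6 libraries of a line alone they were 22 and 23. The cause was not tested. Leaving out a library gave 17 to 36 for dnEGFR (31, 24 and 22 without controls 1 to 3, 25 and 36 without mutants 1 and 3). For ErbB2V664E it gave 16 to 262 (24 and 23 without controls 1 and 3, 262 and 16 without mutants 1 and 2). For the difference it gave 15 to 42 (27, 28, 28 and 42 without dnEGFR control 1, control 3, mutant 3 and ErbB2V664E mutant 1). Mag was called in 4 and Sema4d in 6 of 14 alternatives, with an adjusted p of 0.00425 to 0.237 and 0.00479 to 0.259. Beside these, the block changed no call of a named gene.

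Directions that turned for reasons other than a left-out library were, in dnEGFR mutants, Rtn4rl1 at -0.032 with a pseudocount of 5 and -0.013 for the sum of its loci, and Sort1 at -0.015 with quantile scaling and 0 with median centring. In ErbB2V664E mutants Lrp1 was at -0.027 and Maged1 at -0.03 with quantile scaling. Leaving out a library turned the following values, none of them called. For dnEGFR the ranges were -2.05 to 0.71 for Omg, -0.73 to 0.55 for Rtn4rl1, -0.37 to 0.017 for Rtn4rl2, -0.25 to 0.14 for Ngfr, -0.008 to 0.20 for Tnfrsf19, -0.20 to 0.011 for Arhgdia, -0.11 to 0.040 for Dpysl2, -0.029 to 0.040 for Lrp1, -0.087 to 0.11 for Ntrk2, -0.37 to 0.15 for Olfm1, -0.039 to 0.097 for Rtn1 and -0.27 to 0.27 for Sort1. For ErbB2V664E they were -0.008 to 0.27 for Rtn4r, -0.27 to 0.21 for Rtn4rl2, -0.19 to 0.26 for Lingo1, -0.43 to 0.10 for Ngfr, -0.072 to 0.67 for Tnfrsf19, -0.33 to 0.61 for Arhgdia, -0.013 to 0.038 for Lrp1, -0.18 to 0.43 for Ncan, -0.017 to 0.31 for Ntrk2 and -0.26 to 0.11 for Rtn1. For the difference they were -0.39 to 0.15 for Ngfr, -0.98 to 0.30 for Rtn4rl1, -0.14 to 0.42 for Rtn4rl2 and -0.18 to 0.56 for Tnfrsf19. Values that kept their direction but moved widely on leaving out a library were those of Rtn4 (-0.45 to -0.044) and Lingo1 (-0.59 to -0.001) in dnEGFR mutants and of Omg (0.85 to 3.61) and Tnr (-1.20 to -0.31) in ErbB2V664E mutants. By estimated depth the low libraries rest on few fragments, 7.4 to 72.5 for Omg and 18.5 upward for Ngfr.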

Other observations

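The level of Rtn4 relative to Mag was looked at after the values of both were seen. On the log2 scale, Rtn4 minus Mag was -0.54, -0.24 and -0.80 in ErbB2V664E controls 1 to 3 and 0.27, 1.18 and 0.91 in their mutants. Mag thus exceeded Rtn4 in every ErbB2V664E control and Rtn4 exceeded Mag in every ErbB2V664E mutant, with group means of -0.53 ± 0.28 and 0.79 ± 0.47 (SD, n = 3). The measure was chosen with this separation in view and holds the lower Mag already described. It is therefore given as a description, without a p-value. In the dnEGFR line the same measure was -0.38, 0.19 and -0.05 in controls and -0.49, 0.59 and -0.39 in mutants, which overlapped.

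A spread of 10-fold or more between libraries, or a listing at 0 in at least 1 library, was found in 371 (9.8%) of the 3774 tested loci that reached 10 FPKM. Among the 8 genes only Omg (342-fold) and Rtn4rl1 (35.8-fold) had such a spread, and the others ranged from 1.77-fold for Rtn4 to 6.36-fold for Ngfr.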
